A study of Mus musculus with 8 samples.

Results

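The nuclear-encoded subunits of the mitochondrial respiratory chain were examined by RNA-seq in the line C3H10T1/2, mouse mesenchymal stem cells that come from embryos of the C3H strain. The members were all genes whose symbol has the form of a subunit name of complex I (*Nduf* genes of the a, b, c, s and v series), complex II (*Sdha* to *Sdhd*), complex III (*Uqcr* genes), complex IV (*Cox4* to *Cox8* genes) or ATP synthase (*Atp5* genes, complex V). Symbols of pseudogenes and of the assembly factor series *Ndufaf* and *Sdhaf* were left out. This rule used names only and found 86 of the 18605 genes, of which 40 belong to complex I, 4 to complex II, 8 to complex III, 17 to complex IV and 17 to complex V. The subunits encoded by the mitochondrial genome were not analysed here. The study sequenced 4 groups of 2 libraries. One kind of cells had received a non-target control (NC), the other a lentivirus with shRNA directed at *Nap1l2* (KD-Nap1l2), a histone chaperone gene. Each was taken without induction and, as NC-7d or KD-Nap1l2-7d, when osteogenic medium had been applied for 7 days. The medium was high-glucose DMEM with serum, dexamethasone, ascorbic acid and β-glycerol phosphate, so the induced cells differ from the others in time in culture and in these agents together. Nothing in the labels says whether the 2 libraries of a group came from separate cultures, and p-values therefore measure only the spread between these libraries.

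The respiratory chain passes electrons from NADH (complex I) and succinate (complex II) through ubiquinone and complex III to cytochrome *c*, and complex IV hands them to oxygen. Complexes I, III and IV pump protons out of the mitochondrial matrix on the way, and ATP synthase lets them flow back to make ATP. Each complex except complex II joins nuclear subunits with subunits made inside the mitochondrion. A change of mesenchymal cells from a glycolytic towards an oxidative metabolism is a known accompaniment of their differentiation into bone-forming cells.

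The libraries held 17420284 to 19427359 counts, and the members took 0.653 to 0.752% of them. *Nap1l2* had 3 counts in each NC library, 2 and 7 in the libraries labelled KD-Nap1l2, 15 and 5 in NC-7d and 7 and 13 in those labelled KD-Nap1l2-7d. Its counts did not show the knockdown and are too few to exclude it. The paper reports a knockdown in this line by western blot and qPCR. The groups are named here by their labels. Of the mesenchymal markers, *Col1a1* had 35783 to 114029 counts, while *Nt5e* had at most 3. In the edgeR test 11 of these markers were tested. With a fall, 1 passed in the control induction and 6 in that of the libraries labelled KD-Nap1l2, against 3.38% and 7.36% of all genes. Averaged over both kinds of cells, 7 fell and 1 rose (median -0.59), against 12.7% and 12.8% of all genes. Of the 8 osteoblast markers, *Alpl*, *Sp7*, *Ibsp* and *Bglap* had at most 22.48 counts, also after induction, *Dmp1* and *Phex* 40.93 to 569, *Runx2* 973.62 to 1604.38 and *Spp1* 27598 to 90638. In the edgeR test of the induction effect averaged over both kinds of cells, *Spp1* rose (log2 fold change 1.30, adjusted p = 0.0112) while *Runx2* (-0.52, adjusted p = 0.00888) and *Dmp1* (-1.64, adjusted p = 0.034) fell. Among the adipocyte markers *Fabp4* rose in both inductions (log2 fold changes 4.09 and 3.12, adjusted p = 0.00192 and 0.00298 in the edgeR test), as did *Pparg* (1.09 and 0.91), while *Cebpa* (-2.40) and *Lpl* (-1.54) fell in the induction of the libraries labelled KD-Nap1l2. *Adipoq*, *Plin1* and *Cidec* had at most 18, 2 and 3 counts. The summed adipocyte markers ran from 428 to 439 CPM (counts scaled to library size) in NC and 578 to 953 in NC-7d. They ran from 339 to 341 in KD-Nap1l2 and 425 to 611 in KD-Nap1l2-7d. These sums came largely from *Plin4*, which passed in neither induction. It had 3951 to 14816 counts, with the highest in NC-7d replicate 2. The part of the mesenchymal and adipocyte markers in the results below was not tested. Of the leukocyte and macrophage markers, *Ptprc*, *Cd3e* and *Itgam* had at most 6.18 counts, *Csf1r* 5 to 21, *Lyz2* 14.68 to 103.33 and *Cd68* 56 to 196. The 4 brown fat markers had at most 4. In such bulk RNA, fewer cells of a type and less RNA per cell cannot be told apart.

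The promoters of many respiratory chain genes are known to be bound by NRF1, GABPA and YY1. RefSeq promoters of GRCm38.p6, from 250 bases before to 50 after the start of transcription, were found for 69 members (74 promoters) and searched on both strands. GCGCA followed by any base and GCGC, the NRF1 motif, was in 24.3% of the member promoters and in 4.6% of all 32851. CCGGAAG, the motif of GABPA and other ETS factors, was in 21.6% and 8.86%, and AAGATGGCG, the YY1 motif, in 9.46% and 1.4%. The motif TCAAGGTCA, read by estrogen-related receptors, was in 2.7% and 0.423%, CCAAT in 41.9% and 37.4%, and TATAAA in 10.8% and 13.6%. In 34 of the 69 members at least 1 of the first 3 motifs was found. A match describes letters in the window and not a bound site.

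Promoters are shown of the members that the results below turn on (*Cox5a*, *Ndufc1* and *Atp5c1*) and of *Cox6a1*, which holds 3 matches. They are printed 5′ to 3′ on the strand of the gene, with NRF1, GABPA and YY1 matches in capitals. *Cox5a* lies on the plus strand at chr9:57520982-57521281, *Ndufc1* on the minus strand at chr3:51408906-51409205, *Atp5c1* on the minus strand at chr2:10080383-10080682 and *Cox6a1* on the minus strand at chr5:115348909-115349208.
Cox5a: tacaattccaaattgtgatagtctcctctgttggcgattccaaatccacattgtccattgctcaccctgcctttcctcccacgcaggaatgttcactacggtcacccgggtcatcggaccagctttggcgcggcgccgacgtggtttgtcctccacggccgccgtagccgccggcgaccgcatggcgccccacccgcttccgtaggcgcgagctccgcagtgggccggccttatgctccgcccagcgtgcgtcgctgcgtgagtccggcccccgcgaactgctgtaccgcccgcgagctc
Ndufc1: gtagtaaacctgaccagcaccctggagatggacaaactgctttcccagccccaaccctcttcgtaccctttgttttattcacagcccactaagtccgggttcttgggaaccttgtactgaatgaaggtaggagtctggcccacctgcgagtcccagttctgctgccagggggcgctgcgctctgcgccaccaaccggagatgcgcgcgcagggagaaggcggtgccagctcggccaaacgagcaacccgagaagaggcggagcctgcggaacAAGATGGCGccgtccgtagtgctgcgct
Atp5c1: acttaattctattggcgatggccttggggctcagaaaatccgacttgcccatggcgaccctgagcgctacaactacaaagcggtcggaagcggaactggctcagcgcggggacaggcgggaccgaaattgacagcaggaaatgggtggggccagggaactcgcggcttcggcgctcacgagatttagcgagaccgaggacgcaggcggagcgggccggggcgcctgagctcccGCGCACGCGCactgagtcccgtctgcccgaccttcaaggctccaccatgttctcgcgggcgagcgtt
Cox6a1: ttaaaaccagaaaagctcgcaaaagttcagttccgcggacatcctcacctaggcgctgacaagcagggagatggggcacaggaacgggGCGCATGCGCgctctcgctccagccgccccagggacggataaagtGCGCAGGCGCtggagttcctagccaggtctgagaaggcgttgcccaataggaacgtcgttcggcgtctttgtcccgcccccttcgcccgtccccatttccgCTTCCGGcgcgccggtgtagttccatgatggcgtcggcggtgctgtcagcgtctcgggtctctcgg
The *Cox5a* window holds none of the 3 motifs. It lies inside the span of the gene, which begins at 57517328, so a start further upstream was not searched. *Ndufc1* holds a YY1 match that begins at base 23 of the transcript. *Atp5c1* holds an NRF1 match that begins 17 bases before the start, and its other listed start, further upstream, holds none. *Cox6a1* holds NRF1 matches that begin 162 and 117 bases before the start and a GABPA match, on the other strand, that begins 16 bases before it.

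Most members were well expressed, and 80 of the 86 passed the filter on low counts, 77 of them with a mean of at least 100 counts per library. Levels between genes were compared as FPKM, the authors' counts scaled to gene length and library. Complex V and complex IV held the members of highest level. *Atp5b*, the catalytic beta subunit of ATP synthase, had a mean FPKM of 467 over the 8 libraries, with 412 to 541 in single libraries. *Cox8a*, a small subunit of cytochrome *c* oxidase, had a mean FPKM of 454, with 411 to 501. Their ranges overlapped, so their order is not fixed by these libraries. In complex I, *Ndufa4* led with 343 FPKM (297 to 391), well above *Ndufb9* with 171. *Ndufa4* is named for complex I but its product is known to be found in complex IV. The lowest level among the expressed subunits of complex I was that of *Ndufa11*, with 14.3 FPKM (12.5 to 16.7). This rank depends on its length, 2669 bases as implied by counts and FPKM. By CPM *Ndufa11* (33.3 to 42.7) stood above *Ndufb2* (16.1 to 23.2). Complex II was the most even, from 73.9 FPKM for *Sdhc*, one of its membrane anchors, to 44.5 for *Sdhd*, the other anchor, a ratio of 1.66. In complex III, *Uqcrb* had 177 FPKM and *Uqcrfs1*, the Rieske iron-sulfur protein, 34.2. *Atp5s*, a coupling factor of ATP synthase, stood far below the rest of complex V with 6.27 FPKM (5.04 to 7.51).

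**Figure D1:**
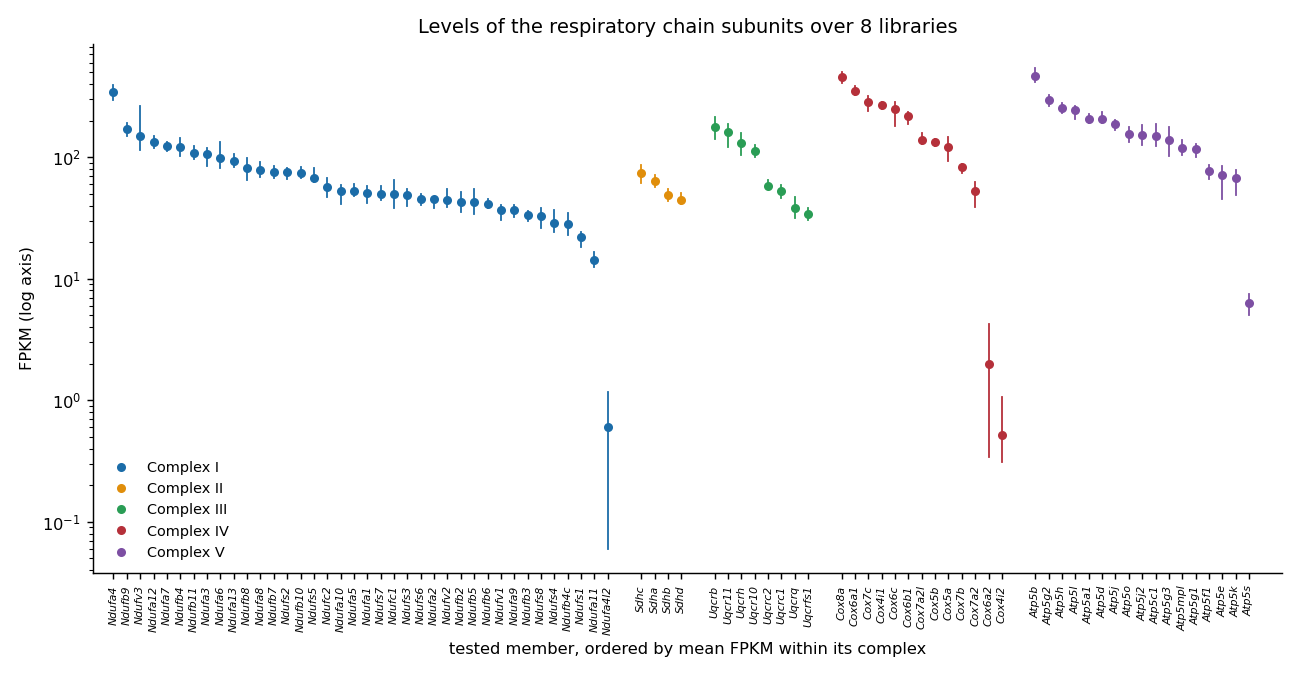
Mean FPKM (log axis) of the 80 tested members over all 8 libraries, ordered within each complex, with a line from the lowest to the highest library. Most members lie within a narrow range over the libraries, while *Ndufa4l2*, *Cox6a2* and *Cox4i2* have means below 2 FPKM and wide ranges.

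The first question was what 7 days of induction did to the chain in control cells. One subunit passed the test, and it rose: *Cox5a*, a nuclear-encoded subunit of cytochrome *c* oxidase. Most of the other members were slightly lower after induction. *Cox5a* (gene 12858, chromosome 9, 57517328 to 57532427 in GRCm38.p6) had 64.4 and 61.4 CPM in the NC libraries and 101 and 89.5 in NC-7d. The NC-7d libraries were both above the NC libraries. The fold change was 1.51 (log2 0.60, standard error (SE) 0.14, adjusted p = 0.0418 in edgeR's quasi-likelihood test over all 13470 genes tested). Among all genes tested, 4.83% passed with a rise and 3.38% with a fall, so 1 call among 80 members is below that background. DESeq2's Wald test called *Cox5a* (adjusted p = 0.0117) and also *Atp5c1* (log2 fold change -0.46, adjusted p = 0.0218). Limma on log2(FPKM + 1) and on log2(FPKM + 0.1) called *Atp5c1* (adjusted p = 0.0404 and 0.0425) and did not call *Cox5a* (adjusted p = 0.0551 and 0.0527). The call of *Cox5a* was lost when any 1 of the 4 libraries was left out, with adjusted p-values of 0.064 to 0.204 and log2 fold changes of 0.51 to 0.68.

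In this comparison 65 of the 80 tested members had a negative log2 fold change, against 50.3% of all genes tested, and 15 had a positive one, against 49.6%. Their median was -0.11, while that of all genes was -0.0035. The NC-7d libraries lay below both NC libraries for 39 members and above them for 7. Among all genes the groups were separated this way for 28.4% and 29.4%. The median was negative in every complex, at -0.11 in complex I, -0.18 in complex II, -0.16 in complex III, -0.08 in complex IV and -0.10 in complex V. The members' median is smaller than the median SE of a single member, 0.14, which describes 1 gene and not a median. The spread of the members' median between replicate libraries, pooled over the 4 groups, gave a standard deviation of 0.053 for this comparison. It rests on 2 libraries a group. In all, 8 members had an unadjusted p-value under 0.05, 10% of them against 24.5% of all genes. For 52 members the 95% confidence interval lay within 0.5 of no change on the log2 scale. The members are short transcripts, with a median length of 693 bases as implied by counts and FPKM, and short genes had lower values too. Tested genes under 1000 bases had a median log2 fold change of -0.14 and longer ones of 0.02, while the members had -0.10 below and -0.11 above that length. The part of transcript length in the shift was not tested.

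The largest negative values that did not pass were those of *Ndufa4l2*, *Cox6a2* and *Ndufv3*, followed by *Ndufa6*, *Ndufb5* and *Atp5c1* at -0.46 each (adjusted p = 0.179, 0.0946 and 0.0605 in the edgeR test). *Ndufv3*, an accessory flavoprotein subunit of complex I, had 119 and 104 CPM in NC and 85.6 and 74.1 in NC-7d (log2 fold change -0.48, SE 0.31, adjusted p = 0.378 in the edgeR test). The largest positive values after *Cox5a* were those of *Cox4i2* and of *Uqcrc1*, a core protein of complex III, with 0.19 (SE 0.11, adjusted p = 0.337 in the edgeR test). *Cox4i2*, *Cox6a2* and *Ndufa4l2* had 1 to 17 counts in these 4 libraries and are described below with the isoforms.

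The same comparison was made in the libraries labelled KD-Nap1l2. Again 1 member passed, and here it fell: *Ndufc1*, a small accessory subunit in the membrane arm of complex I. *Cox5a* was again higher after induction without passing. *Ndufc1* (gene 66377, chromosome 3, 51405479 to 51408955) had 23.7 and 20.5 CPM in KD-Nap1l2 and 14.6 and 15.2 in KD-Nap1l2-7d. Both induced libraries lay below both others. Its log2 fold change was -0.57 (SE 0.15, adjusted p = 0.0447 in the edgeR test). Among all genes, 7.36% passed with a fall and 6.84% with a rise. DESeq2 gave *Ndufc1* an adjusted p of 0.0505 and called 0 members, with 10 at an unadjusted p under 0.05 in edgeR, against 31.4% of all genes. When each of the 4 libraries was left out the edgeR adjusted p ran from 0.0543 to 0.234. In control cells *Ndufc1* had 21.4 and 19.6 CPM in NC and 17.1 and 19.9 in NC-7d, which overlap (log2 fold change -0.15, SE 0.15). The difference between its induction effects was -0.42 (SE 0.22, adjusted p = 0.73 in the edgeR test) and did not pass.

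Here 52 of 80 members had a negative log2 fold change (50.6% of all genes), with a median of -0.10 against -0.007 for all genes. The induced libraries lay below both others for 26 members and above for 9, while among all genes 30.6% and 30.8% were separated. The libraries of KD-Nap1l2-7d differed among themselves: the median deviation of the members from their mean over all libraries was -0.14 in replicate 1 and 0.01 in replicate 2. Without replicate 1 the members' median log2 fold change was -0.01, and without replicate 2 it was -0.17, so its size rested on single libraries. Complex IV had a median of 0.02 and complex V of -0.13. *Cox5a* had 77.4 and 64.7 CPM in KD-Nap1l2 and 85.4 and 99.2 in KD-Nap1l2-7d (log2 fold change 0.38, SE 0.14, adjusted p = 0.115 in the edgeR test). *Ndufv3* had 87.3 and 188 CPM in KD-Nap1l2 and 84.3 and 96.3 in KD-Nap1l2-7d. Its log2 fold change of -0.61 did not pass (adjusted p = 0.218 in the edgeR test), was -1.06 without KD-Nap1l2 replicate 1 (adjusted p = 0.00913) and 0.05 without replicate 2, the library with the high value. Without KD-Nap1l2 replicate 1, *Sdhc* was called too, and without replicate 2 *Atp5g3* was called (log2 fold change -0.61, adjusted p = 0.0493 in the edgeR test).

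**Figure D2:**
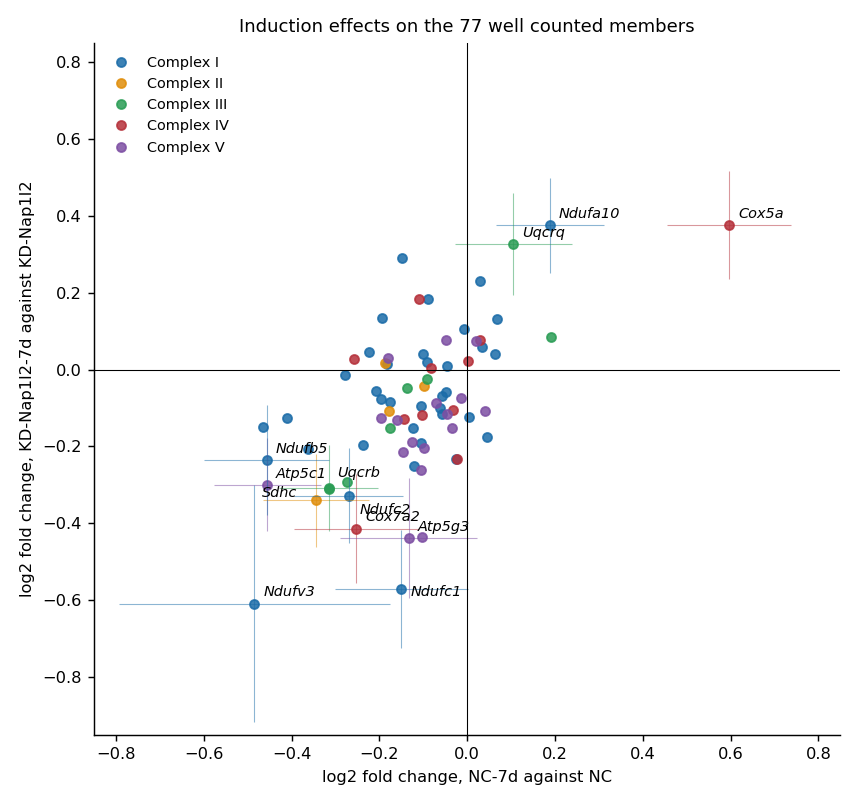
Log2 fold change after induction in the control cells (horizontal axis) and in the libraries labelled KD-Nap1l2 (vertical axis) for the 77 members with a mean of at least 100 counts, coloured by complex, with bars of 1 SE for the 12 named ones. Most points lie in the lower left, and *Cox5a* stands apart at the upper right with 0.60 and 0.38.

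These 2 inductions share no library. Of the 80 members, 49 were lower after induction in both, 12 higher in both and 19 moved in opposite directions, while 37.7% of all genes were lower in both. Across the members, the log2 fold changes had a Pearson r of 0.46 and a Spearman rho of 0.48, against 0.71 and 0.65 across all genes. Genes are not independent replicates, and these are descriptions.

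The induction effect was also averaged over both kinds of cells within the same fit, a contrast chosen after the values had been seen. It called 9 members, 2 that rose and 7 that fell. They come from all 5 complexes. In all, 62 of 80 members had a negative value, against 51% of all genes, with a median of -0.09. Tested genes under 1000 bases had a median of -0.11 in this contrast and longer ones of 0.01. The members had -0.10 below and -0.08 above that length, and the part of transcript length was not tested. Among all genes 12.8% passed with a rise and 12.7% with a fall, so 2 and 7 of 80 are again below the background. Of the members that passed, *Cox5a* rose most, by 0.49 on the log2 scale (SE 0.10, adjusted p = 0.0114 in the edgeR test), and all 4 induced libraries lay above all 4 others. *Ndufa10*, an accessory subunit of complex I, had 51.4 to 65.5 CPM in the 4 libraries before induction and 67.5 to 71.5 in the 4 induced ones (log2 fold change 0.28, SE 0.09, adjusted p = 0.0488 in the edgeR test). This call was held by 1 of 16 alternatives, without KD-Nap1l2 replicate 1, and DESeq2 gave an adjusted p of 0.0757. The induced libraries were higher for 3 members in all and lower for 16 in this way, which was 14.1% and 12.3% among all genes.

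The 7 members that fell were *Atp5c1*, *Sdhc*, *Uqcrb*, *Ndufb5*, *Ndufc2*, *Ndufc1* and *Cox7a2*, with log2 fold changes of -0.30 to -0.38. *Atp5c1*, the gamma subunit that forms the rotating stalk of ATP synthase, had 215 and 197 CPM in NC and 154 and 147 in NC-7d. In the libraries labelled KD-Nap1l2 it had 170 and 187, and after induction 141 and 149. All induced libraries lay below all others, and the averaged log2 fold change was -0.38 (SE 0.09, adjusted p = 0.0168 in the edgeR test). *Sdhc* had 95 and 92.7 CPM in NC and 71.6 and 76.3 in NC-7d, and 87.1 and 102 in KD-Nap1l2 and 75.1 and 74.4 in KD-Nap1l2-7d. Its log2 fold change was -0.34 in both kinds of cells, and the 95% interval of the difference ran from -0.39 to 0.40. *Uqcrb*, a small subunit of complex III, had 99.5 and 101 CPM in NC, 84.3 and 76.7 in NC-7d, 87.3 and 84.3 in KD-Nap1l2 and 67.1 and 71.5 in KD-Nap1l2-7d. The induced libraries of *Uqcrb* all lay below the others, though the nearest pair was 84.3 in both, and its averaged value was -0.31 (SE 0.08, adjusted p = 0.0249 in the edgeR test). *Ndufb5* had 40.3 and 39.3 CPM in NC, 28.6 and 29.4 in NC-7d, 34.1 and 27.3 in KD-Nap1l2 and 24.8 and 27.4 in KD-Nap1l2-7d. *Ndufc2* had 44.1 and 39.7 in NC, 35.3 and 34.3 in NC-7d, 42.0 and 38.4 in KD-Nap1l2 and 30.5 and 33.5 in KD-Nap1l2-7d. *Cox7a2* had 40.9 and 45.4, 35.7 and 36.7, 40.5 and 43.6, and 28.1 and 35.1 in the same order. The averaged values of the small accessory subunits were *Ndufb5* (-0.35, adjusted p = 0.0403), *Ndufc2* (-0.30, adjusted p = 0.041) and *Ndufc1* (-0.36, adjusted p = 0.0432) of complex I and *Cox7a2* (-0.33, adjusted p = 0.0447) of complex IV, all in the edgeR test. The induced and other libraries overlapped for *Ndufb5* and *Ndufc1* and did not for *Ndufc2* and *Cox7a2*.

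The 9 calls depended on the settings. Over 16 alternatives (other tools, scalings and filters, the replicate block and each library left out) *Cox5a* was called in 15, *Atp5c1* in 13, *Sdhc* and *Uqcrb* in 11, *Cox7a2* in 7, *Ndufc1* in 6, *Ndufb5* and *Ndufc2* in 5 and *Ndufa10* in 1. DESeq2 called 5 of the 9, without *Ndufa10*, *Ndufc1*, *Ndufc2* and *Cox7a2*, and *Ndufv3* in addition. The number kept was 1 without NC replicate 1, KD-Nap1l2-7d replicate 1 or KD-Nap1l2-7d replicate 2, 2 without NC replicate 2, and 3 and 4 when the first or the second library of NC-7d was left out. Without KD-Nap1l2 replicate 1 it was 6, with *Ndufv3* and *Cox7a1* called in addition, and without KD-Nap1l2 replicate 2 it was 7, with *Atp5g3* in addition. The alternative that lost *Cox5a* was the one without KD-Nap1l2-7d replicate 2, where its adjusted p was 0.0533. The core subunits of complex I, which include the carriers of its flavin and iron-sulfur clusters, had a median of 0.05 with 4 of 7 higher, while the other 31 tested members of complex I had a median of -0.10 with 27 lower. These medians were -0.09 and -0.12 in the control induction and 0.13 and -0.10 in that of the libraries labelled KD-Nap1l2. In the averaged contrast complex V had a median of -0.15 with 15 of 17 lower, complex III of -0.13, complex II of -0.11 and complex IV of -0.04. The members of one complex share all libraries and are no replicates of it.

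**Figure D3:**
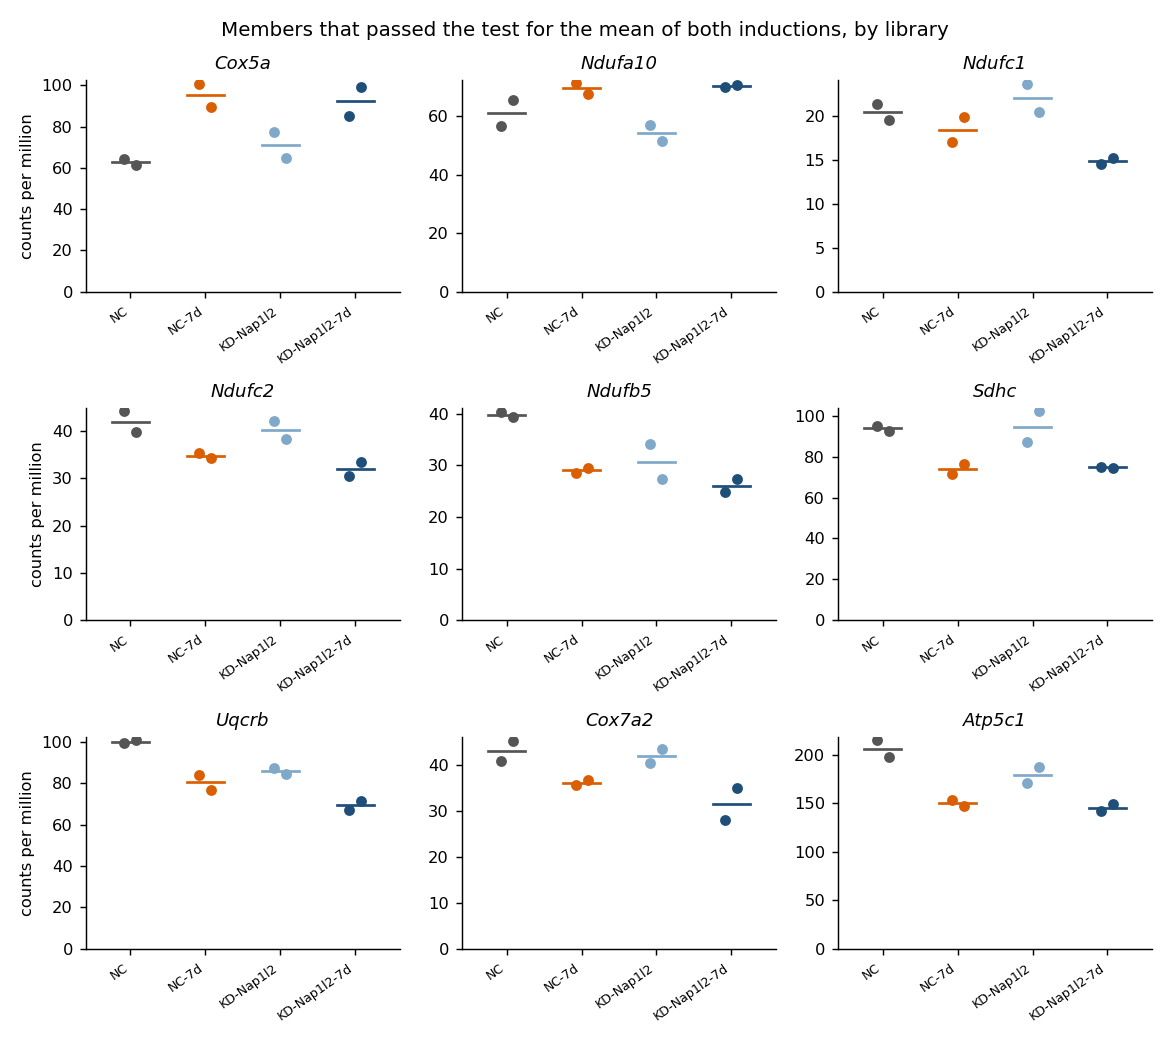
CPM (vertical axis, from 0) of the 9 members that passed the test for the averaged induction, for each library (points) with the group mean (line). *Cox5a* and *Ndufa10* are higher in the 4 induced libraries, and the other 7 are lower on average.

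The libraries labelled KD-Nap1l2 were compared with NC before induction. No member passed the edgeR test, and 0.0223% of all genes passed with a rise and 0.0594% with a fall. DESeq2 called 0 members as well. At an unadjusted p under 0.05 there were 2 members, against 13.7% of all genes. The smallest adjusted p, 0.304, was that of *Ndufb5*, with 40.3 and 39.3 CPM in NC and 34.1 and 27.3 in KD-Nap1l2 (log2 fold change -0.37, SE 0.14, and -0.55 to -0.22 when each library was left out). The median of the members was -0.07 against 0.01 for all genes, and 59 of 80 were below 0, against 48.5% of all genes. The spread of this median between replicate libraries gave a standard deviation of 0.053. Also lower were 56 of 78 mitochondrial ribosomal proteins (median -0.06), 66 of 83 cytosolic ones (-0.08) and 31 of 44 assembly factors (-0.09). TCA cycle enzymes (0.07), fatty acid oxidation genes (0.11) and other electron carriers (0.04) had positive medians. The libraries labelled KD-Nap1l2 lay below NC for 20 members and above for 5, while 21.2% and 22% of all genes were separated this way. All 7 core subunits of complex I had negative values, from -0.01 (*Ndufv2*) to -0.26 (*Ndufs3*), none of which passed. For 62 members the 95% interval lay within 0.5 of no change. Tested genes under 1000 bases had a median of -0.04 and longer ones of 0.02. The members had -0.06 below and -0.09 above that length, and the part of transcript length was not tested. Of the genes at the ends of the order, *Ndufb4c* had a log2 fold change of -0.39 (adjusted p = 0.541 in the edgeR test) and shares reads with *Ndufb4*, and *Ndufv3* had 0.30 (adjusted p = 0.716 in the edgeR test), which became -0.36 without KD-Nap1l2 replicate 2.

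After 7 days, KD-Nap1l2-7d against NC-7d, no member passed either, as was the case for all genes tested (0% in each direction). DESeq2 called 0 members. The median of the members was -0.04, with 48 of 80 lower against 50.9% of all genes. It was -0.09 without KD-Nap1l2-7d replicate 2 and 0.009 without replicate 1, so its direction rested on single libraries. In all, 62 had an interval within 0.5 of no change. The libraries labelled KD-Nap1l2-7d lay above NC-7d for 8 members and below for 13, against 21% of all genes each way. *Uqcrq* had 58.2 and 56.1 CPM in NC-7d and 63.4 and 71.9 in KD-Nap1l2-7d (log2 fold change 0.24, SE 0.13, adjusted p = 0.711 in the edgeR test). *Atp5e*, the epsilon subunit of ATP synthase, had 25.8 and 29.9 in NC-7d and 17.4 and 26.0 in KD-Nap1l2-7d (log2 fold change -0.36, adjusted p = 0.715 in the edgeR test), with -0.69 to -0.10 when each library was left out. *Atp5g3* and *Ndufc1* had log2 fold changes of -0.30 and -0.31, with adjusted p-values of 0.704 and 0.688 in the edgeR test. The 1 member with an unadjusted p under 0.05, against 7.85% of all genes, was *Cox6a2*.

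The difference of the induction effects between both kinds of cells was called for 0 members by edgeR and by DESeq2, for 0% of all genes in each direction by edgeR, and at an unadjusted p under 0.05 for 0 members against 7.04% of all genes. Its median over the members was 0.03, which became -0.04 without KD-Nap1l2-7d replicate 2 and 0.09 without replicate 1. The median SE was 0.19, and only 26 of 80 members had an interval within 0.5 of no difference, so smaller differences were not detectable with 2 libraries a group. All 7 core subunits of complex I had positive differences, from 0.04 (*Ndufv2*) to 0.33 (*Ndufs3*). So had 48 of all 80 members and 47.8% of all genes. The summed core subunits had 432 and 435 CPM in NC and 415 and 418 in NC-7d. They had 378 and 419 in KD-Nap1l2 and 415 and 427 in KD-Nap1l2-7d. The library with the lowest sum enters all 7 differences. The difference of the induction effects shares all its libraries with the comparisons above. *Ndufs3* had 49.2 and 49.9 CPM in NC, 42.4 and 44.2 in NC-7d, 44.2 and 38.3 in KD-Nap1l2 and 42.0 and 48.6 in KD-Nap1l2-7d.

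Several subunits of complex IV exist as isoforms, where one is found in most tissues and another in muscle, heart, lung or testis. These cells used the common isoforms. *Cox4i1*, *Cox6a1*, *Cox6b1*, *Cox7b* and *Cox8a* made up at least 98.9% of the summed FPKM of their families in every library, and *Ndufa4* at least 99.6% beside *Ndufa4l2*. *Cox7a2* made up 92.9 to 99.7% beside the muscle and heart isoform *Cox7a1*. *Cox8b*, *Cox6b2* and *Cox7b2* had 0 to 3 counts in every library, and a count of 0 allows up to 3 counts. *Cox7a1* had 1 to 10 counts in 7 libraries and 27 in KD-Nap1l2 replicate 2, the library that was also high for *Ndufv3*. *Ndufa11b* and *Ndufb4b*, the other members that were not tested, had at most 4.37 and 8.26 estimated counts.

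*Cox6a2*, the isoform of striated muscle, had 11 and 17 counts in NC, 14 and 4 in NC-7d, 30 and 20 in KD-Nap1l2 and 49 and 36 in KD-Nap1l2-7d. All 4 libraries labelled as knockdown lay above all 4 control libraries. This order was not a planned comparison, and the share of all genes that show it was not determined. Its level stayed at most 1.13% of the *Cox6a* family. After induction the log2 fold change was 2.22 (SE 0.57, 95% interval 0.90 to 3.53), and it was 0.90 before (SE 0.55), with adjusted p-values of 0.495 and 0.527 in the edgeR test, so neither passed. The value after induction ran from 1.53 to 3.46 when each library was left out. The gene overlaps *Itgad* in RefSeq. Of the 10 muscle markers examined, *Ckm* and *Myl1* had at most 1 count in the libraries labelled KD-Nap1l2 and KD-Nap1l2-7d, and 16 counts each in NC-7d replicate 1. The summed markers of muscle ran from 4.3 to 6.04 CPM in NC, 5.41 to 24.4 in NC-7d, 4.22 to 4.67 in KD-Nap1l2 and 14.8 to 21.1 in KD-Nap1l2-7d, largely through *Tnnt2* with 19 to 366 counts. *Acta1* and *Tnnt3* went the other way and were lowest in KD-Nap1l2-7d. *Acta1* had 4.03 and 7.06 counts there and 55.1 and 13.32 in NC-7d. *Tnnt3* had 6 and 5 counts there and 17 and 13 in NC-7d. *Myod1* and *Myog*, which define skeletal muscle, had at most 1 and 3 counts. The part of such cells in the *Cox6a2* values was not tested.

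*Cox4i2*, the isoform of lung and of low oxygen, had 4 to 16 estimated counts in every library, and *Ndufa4l2*, known to be induced by low oxygen, had 1 to 20. Their log2 fold changes ranged from -1.42 to 1.44 over the 4 comparisons, with SEs of 0.56 to 0.996. When each library was left out, *Cox4i2* changed sign in the control induction and *Ndufa4l2* in the other 3 comparisons. No order of groups can be read from them.

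**Figure D4:**
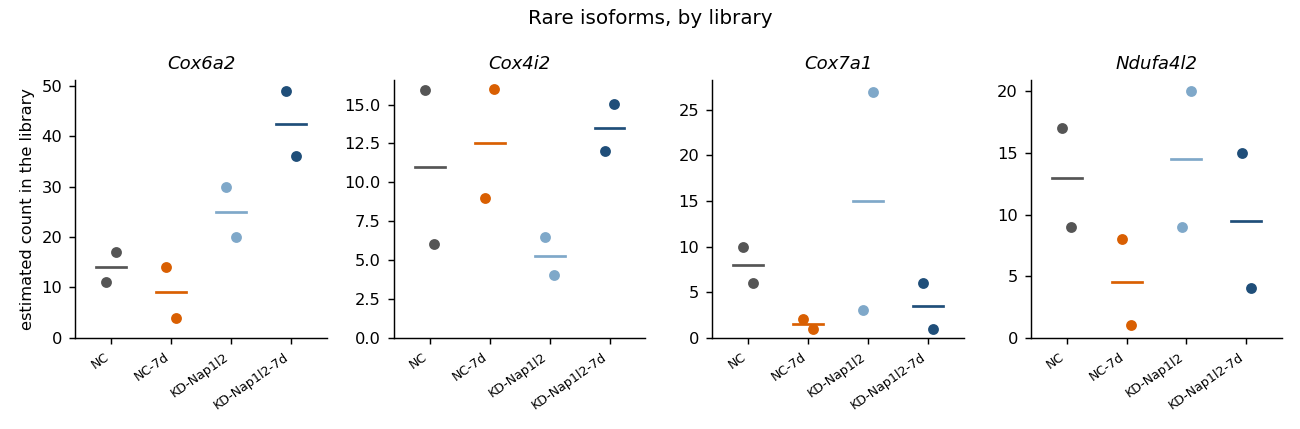
Estimated counts (vertical axis, from 0) of 4 rare isoforms in each library (points) with the group mean (line). *Cox6a2* is higher in the 4 libraries labelled KD-Nap1l2 or KD-Nap1l2-7d, and the other 3 show no such order.

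ATP synthase makes its rotor ring of subunit *c*, which 3 genes encode as the same mature protein with different import sequences. *Atp5g2* gave 53.8% of their summed FPKM on average, *Atp5g3* 25% and *Atp5g1* 21.2%, and the share of *Atp5g3* ran from 20.9 to 30.2%. *Atp5g3* had 103 and 104 CPM in NC, 90.4 and 98.6 in NC-7d, 118 and 91.0 in KD-Nap1l2 and 70.4 and 83.6 in KD-Nap1l2-7d. The induced libraries were lower in both kinds of cells, but the averaged effect of -0.29 did not pass (adjusted p = 0.0949 in the edgeR test). *Ndufb4c*, a relative of *Ndufb4* on another chromosome, held 13.6 to 22.5% of the summed FPKM of that family. Its counts are not whole numbers, so reads were split between near-identical copies and its level is uncertain. Whole counts in every library were found for 65 of the 86 members, and 28 members are overlapped by another gene in RefSeq, among them *Cox7a2* by *Tmem30a* and *Sdhc* by a non-coding RNA. Reads of such pairs cannot be told apart where the counting did not use strand.

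Transcripts were deposited as well, 138 for the members, with 1 for each of 56 members and several for 30. They are given here for *Sdhc*, chosen after its values were seen. Its curated RefSeq transcript had 1028 and 1008 estimated counts in KD-Nap1l2 and 1110 and 1027 in KD-Nap1l2-7d, which overlap, while the predicted one had 596 and 784 and then 258 and 273. In the control cells the curated transcript had 1224 and 1404 counts in NC and 865 and 898 in NC-7d, and the predicted one 536 and 405 and then 355 and 554. The induced libraries were thus separated in the curated transcript in the control cells and in the predicted one in the others. These are estimates that divide shared reads, and the difference was not tested. The high *Ndufv3* value of KD-Nap1l2 replicate 2 was shared by both its transcripts, with 1788 and 1510 counts against 846 and 782 in replicate 1.

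Genes that build, feed or control the chain were examined beside the members. Of 44 assembly factors, 0 passed in the control induction and 1 rose in the libraries labelled KD-Nap1l2, *Atpaf1*, which helps to assemble ATP synthase (log2 fold change 0.64, adjusted p = 0.0377 in the edgeR test). Their medians were -0.001 and 0.10. Of 78 mitochondrial ribosomal proteins, 0 and 3 passed, and the 3 rose: *Mrps18b* (0.93), *Mrpl38* (0.70) and *Mrps18a* (0.69). Both shares lie below the 6.84% of all genes that rose in this comparison. Their list had medians of 0.04 and 0.17, opposite in sign to those of the members. Cytosolic ribosomal proteins, also short and abundant transcripts, had medians of -0.25 and -0.06 with 78 and 57 of 83 lower and 0 passing. In the averaged contrast, 1 assembly factor rose and 1 fell, 5 mitochondrial ribosomal proteins rose and 2 fell, and 2 cytosolic ribosomal proteins fell, against 12.8% and 12.7% of all genes. Of 13 TCA cycle enzymes 0 passed in either induction, with medians of 0.06 and 0.01.

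Fatty acid oxidation delivers electrons to the chain, and of its 16 genes 2 passed in the control induction and 3 in the other. Of all genes, 4.83% rose and 3.38% fell in the first and 6.84% and 7.36% in the second. The adipocyte markers *Fabp4* and *Pparg* rose in both as well, while *Cebpa* (-2.40) and *Lpl* (-1.54) fell in the second. *Adipoq*, *Plin1* and *Cidec* had at most 18, 2 and 3 counts in a library. The part of adipocyte markers in these values was not tested. *Cpt1a*, which admits long-chain fatty acids to the mitochondrion, rose in the control cells (log2 fold change 0.82, SE 0.18, adjusted p = 0.0341 in the edgeR test) and in the libraries labelled KD-Nap1l2 (0.93, adjusted p = 0.0174). In the edgeR test *Acadm* rose in the first (0.70, adjusted p = 0.0171), and *Acadl* rose (0.84, adjusted p = 0.0133) and *Eci2* fell (-0.55, adjusted p = 0.0337) in the second. The 13 other electron carriers and quinone enzymes, *Ndufab1* and *Cyc1* among them, had 0 calls in each induction. In the averaged contrast 1 of them rose, *Etfdh*, which passes electrons from fatty acids to ubiquinone (0.31, adjusted p = 0.0464 in the edgeR test), while 12.8% of all genes rose in it.

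Of 13 regulators of mitochondrial biogenesis, 1 passed in the control induction and 0 in the other. Of all genes, 4.83% rose and 3.38% fell in the first and 6.84% and 7.36% in the second. A call of 1 gene in 13 does not set this list apart from these shares. *Ppargc1a*, which encodes the coactivator PGC-1α, had 18.3 and 12.5 CPM in NC, 4.69 and 2.94 in NC-7d, 5.36 and 2.22 in KD-Nap1l2 and 2.31 and 3.43 in KD-Nap1l2-7d. The NC libraries stood above all others. It fell in the control induction (log2 fold change -2.01, SE 0.44, adjusted p = 0.0326 in the edgeR test), and between KD-Nap1l2 and NC it had a log2 fold change of -2.01 that did not pass (adjusted p = 0.121). These comparisons share the NC libraries. The factors *Nrf1*, *Gabpa* and *Yy1* had log2 fold changes of -0.18 to 0.17 over the 4 comparisons, and 0 of these passed. In the averaged contrast *Ppargc1a* fell (-1.21) and *Pprc1*, a related coactivator, rose (0.61, adjusted p = 0.041 in the edgeR test). Of all genes, 12.8% rose and 12.7% fell in that contrast.

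**Figure D5:**
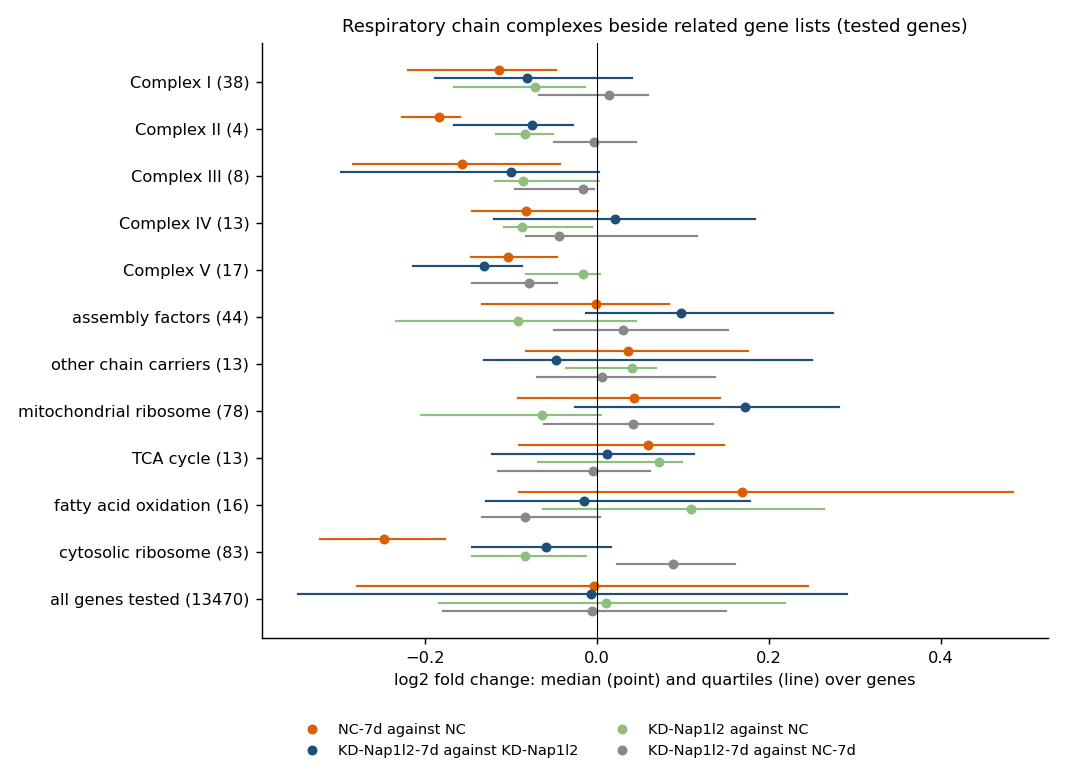
Median log2 fold change (points) and quartiles (lines) over the tested genes of each complex and of related lists, for the 4 comparisons, with the number of genes in parentheses. Complexes I, II, III and V lie left of 0 in both inductions, while the mitochondrial ribosomal proteins lie right of it.

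The motifs in the promoters were set beside the induction effects as a description. Members with the NRF1 motif had a median averaged induction effect of -0.13 (17 tested members) and those without it of -0.09 (47 tested members). For GABPA these were -0.10 (16) and -0.11 (48), and for YY1 -0.05 (7) and -0.11 (57). *Cox6a1* itself had 167 and 170 CPM in NC, 172 and 173 in NC-7d, 159 and 203 in KD-Nap1l2 and 188 and 194 in KD-Nap1l2-7d, with no call in any comparison.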

How the data were processed

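RNA-seq was deposited for 8 libraries of 4 groups. Expected counts per gene and transcript, deposited by the authors, are RSEM estimates that need not be whole, and the submitters' processing notes name BWA, Bowtie2, RSEM and GRCm38.p6. FPKM values, deposited by the authors beside the counts, are scaled to gene length and library. A table of the authors' own comparisons (fold changes, p-values, q-values) was not used. The strandedness of counting is not given in the sources used here.

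Expected counts were rounded and tested with edgeR 4.0.16 in R 4.3.3 (TMM scaling, its filter on low counts, 1 quasi-likelihood fit of all 8 libraries, Benjamini-Hochberg adjustment over all 13470 genes, threshold 0.05). CPM used TMM-scaled library sizes, and 3 counts correspond to 0.154 to 0.176 CPM. DESeq2 1.42.0, limma 3.58.1 on log2(FPKM + 1) and log2(FPKM + 0.1), other scalings and filters, a replicate block and each library left out were alternatives. The scripts were tested on simulated data. An exact permutation test of 2 against 2 libraries cannot give p below 0.333 and was not used. Members and gene lists were chosen with earlier results of these data known, and the averaged contrast after its values were seen. Named members were those that passed, otherwise the largest changes in each comparison, the tissue isoforms, core subunits at the ends of their range and the highest and lowest levels in each complex. Other genes were named because they passed, after their values were seen. RefSeq promoters of GRCm38.p6 were searched for the motifs on both strands.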

Additional observations from a re-analysis of the deposited data

How the results depend on the processing

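Counts of called members were small and moved with the setting. In the control induction (1 member) the count was 2 with DESeq2 and 0 with library totals only or with the replicate block, and with both limma fits the 1 call was *Atp5c1* in place of *Cox5a*. In the induction of the libraries labelled KD-Nap1l2 (1 member) it was 0 with DESeq2, library totals, no filter, only the libraries compared or the replicate block. For the averaged induction (9 members) it was 4 with library totals, 5 without a filter and 5 with the replicate block. Differences between replicate 2 and replicate 1 were little shared between groups, with correlations over genes of -0.061 to 0.104. Whether libraries of the same number were handled together cannot be told from these values. Leaving out each library gave 0 calls throughout in the control induction, 0 to 2 in the other and 1 to 8 in the averaged one. The members' median log2 fold change then ran from -0.17 to -0.010 in the libraries labelled KD-Nap1l2, from -0.14 to -0.062 averaged, from -0.094 to 0.009 in KD-Nap1l2-7d against NC-7d and from -0.038 to 0.092 in the difference, the last 2 with a change of sign. Values of rarely counted or uneven members reversed. *Cox4i2* in the control induction was -0.18 and -0.36 with limma on log2(FPKM + 1) and log2(FPKM + 0.1), and -0.32 to 1.14 when each library was left out. Leaving out each library also gave *Cox6a2* -1.77 to 0.16 in the control induction. It gave *Ndufa4l2* -1.79 to 0.13 in the other induction, -0.50 to 0.80 in KD-Nap1l2 against NC, -0.14 to 3.18 in KD-Nap1l2-7d against NC-7d and -0.38 to 2.95 in the difference. It gave *Ndufv3* -1.06 to 0.050 in the induction of the libraries labelled KD-Nap1l2 and -0.36 to 0.75 in KD-Nap1l2 against NC. The cause was not tested. With 2 libraries a group, low counts and small differences limit what can be called.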
